A study of Drosophila melanogaster with 4 samples.

Results

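Nuclear receptors are transcription factors that bind DNA through a pair of zinc fingers and, in many cases, are switched by a small lipid ligand. In Drosophila the steroid hormone ecdysone acts through a receptor made of EcR and usp. Its pulses induce a first set of early genes, many of which encode further nuclear receptors, and these pass the signal on to later genes. In the larval brain the hormone times the change from early to late neuroblast identity, the end of neuroblast division and the remodelling of neurons. Prospero is a homeodomain factor that enters the daughters of neuroblasts, limits their division and promotes differentiation.

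The set described here held 31 genes, chosen by name with earlier results of these data known. They were 19 nuclear receptor genes, 9 genes that ecdysone induces early and that encode no nuclear receptor, and 3 genes for cofactors and hormone import. Each was looked up by its exact symbol among the 1584 entries of the authors' deposited table of genes with Prospero binding peaks. These entries hold 1510 unique gene identifiers. Of the 31 genes, 10 were in that table (32.3%), against a background of 7.76% for all protein-coding genes (1082 of 13946).

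The peaks came from targeted DamID in brains dissected from 3rd instar larvae, an assay in which a DNA adenine methylase (Dam) fused to a chromatin protein marks GATC sites near the places that the protein occupies. The 4 groups were Dam alone (Dam-ctr), Dam with full-length Prospero (Dam-ProsFL), Dam with a Prospero form named ∆N7 (Dam-Pros∆N7) and Dam with the heterochromatin protein HP1a (Dam-HP1a). All were driven by GMR71C09-GAL4 with Gal80ts, so the driver set the cells that were marked although DNA was taken from the whole brain, and the design gives 3 biological replicates for each group. The table holds names and identifiers, with no peak height, no peak position and no value per replicate, and the sources used here do not name the Prospero form behind it. No spread between replicates, no comparison of the 4 groups and no check of the cell type against marker levels can be drawn from it, and depth is unknown. Each of the 10 genes had 1 entry, a gene identifier, under a name equal to its symbol, and none had an added transcript identifier. A gene called not in the table is one not among the entries analysed here.

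Of the 19 receptors 8 were in it (42.1%), namely EcR, Eip75B, Hr4, Hr39, Hr51, Hr83, dsf and eg. Of the 9 ecdysone-induced genes that are not receptors, grouped here as early genes, 1 was (11.1%). This was ImpL2, which was isolated and named as a late-induced gene. Setting ImpL2 aside was decided after the table was seen, so 0 of the other 8 genes had to result. That count of 0 is near the 1.22 expected from the shares of genes of like length. Of the 3 cofactor and import genes, 1 was (33.3%), Smr. The share of receptors stood above the 7.76% of all protein-coding genes and above the 17.5% of genes of like length (3.32 of 19). That of the early genes rested on 1 gene and lay near both the 7.76% and the 15% of genes of like length. It leaves out 5 other primary response factors outside the receptor family, described further below, of which 4 were in the table. The genes of the set were picked by hand with results known, so the shares are given as counts, without a test. Whether the 3 shares differ was not tested.

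**Figure D1:**
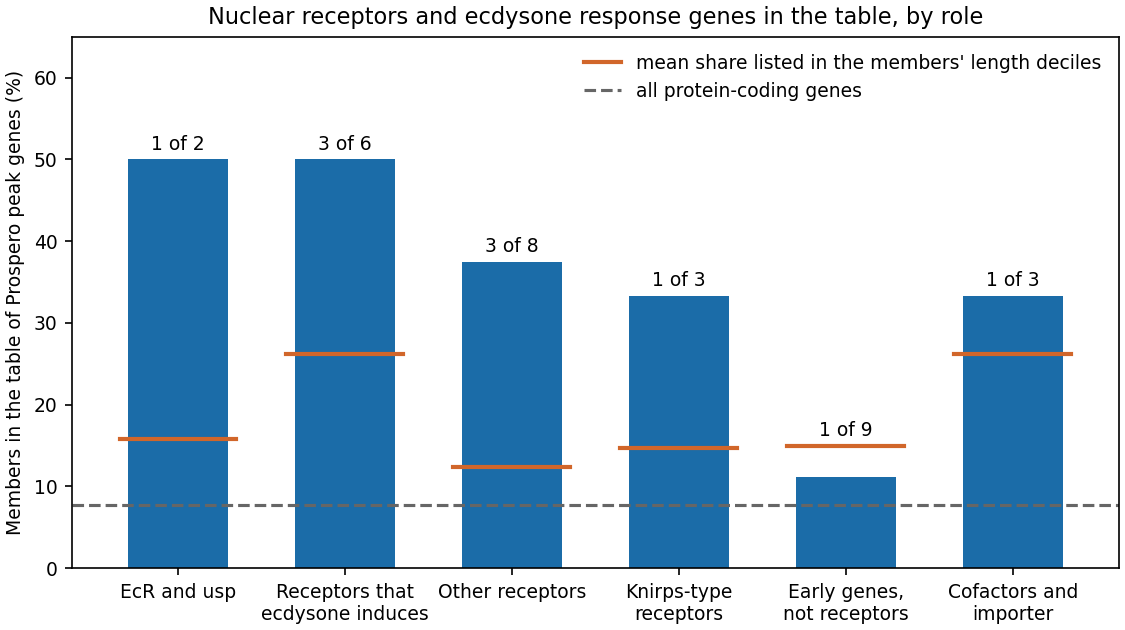
Share of genes in the table of Prospero peak genes (vertical axis, %) for each role, with the count above each bar, the share of all protein-coding genes as a dashed line, and the share averaged over the length deciles of the genes in that role as an orange line. The receptor groups, of 2 to 8 genes each, are at 33.3% to 50%. The early genes that are not receptors are at 11.1% (1 of 9), near the 15% of their length deciles. Differences between the roles were not tested.

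The hormone receptor itself was divided. EcR (FBgn0000546), which binds the hormone, was in the table, and its partner usp, the fly relative of the vertebrate retinoid X receptors, was not. EcR spans 81.2 kb on arm 2R and usp 3.51 kb on X. Long genes were in the table more often than short ones, so each gene is also set against its length decile, which is one of 10 equal groups of protein-coding genes ranked by length. The share in the table was 26.2% in the decile of EcR, the longest, and 5.3% in that of usp.

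Among the 6 receptors that ecdysone induces, 3 were in the table. Eip75B (FBgn0000568), an early-induced haem-binding repressor, was in it with a span of 113.7 kb. Its closest relative among the fly receptors, Eip78C, was not, at 39.9 kb. Hr4 (FBgn0264562), a repressor that acts in the prepupal part of the ecdysone cascade, was in the table at 66 kb. Hr3, which Eip75B binds and represses and which activates ftz-f1, was not. Hr39 (FBgn0261239) was in the table and the related ftz-f1, a competence factor for the prepupal response to ecdysone, was not, although ftz-f1 is the longer of the pair at 50.7 kb against 22.4 kb. All 6 of these genes belong to the longest decile, of which 26.2% was in the table, so 1.57 would be listed at the rate of their length.

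The other receptors included 3 in the table among 8, against 0.989 at the rate of their lengths. Hr51 (FBgn0034012), also called unfulfilled, acts in mushroom body neurons, where it is needed for the regrowth of axons after pruning. The gene dsf (FBgn0015381), dissatisfaction, is needed for sexual behaviour and its neurons. Hr83 (FBgn0037436) is a receptor of little described function. The 5 not in the table were Hr38, the fly member of the activity-induced NR4A family, Hr78, the xenobiotic and lipid receptor Hr96, and the metabolic regulators ERR and Hnf4. Of these 5, Hr78, Hr96 and ERR were between 3.31 and 4.12 kb long, whereas Hnf4 and Hr38, at 22.4 and 31.1 kb, lay in the longest decile.

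Of the 3 knirps-type receptors, which have the zinc fingers of a nuclear receptor but no ligand-binding domain, eg was in the table (FBgn0000560). It sets the identity of serotonergic neurons and other neurons of the ventral nerve cord. The nearby pair kni, a gap gene of the embryo, and knrl, its close relative, were not, although knrl (23.5 kb) is longer than eg (8.9 kb). At the rate of their lengths 0.441 of the 3 would be listed.

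The fly has 21 nuclear receptor genes, of which the remaining 2 are svp, the relative of the vertebrate COUP factors, and tll, a repressor active in the embryo's termini, the optic lobe and neuroblasts. Both were in the table, which made 10 of 21 (47.6%), against 3.63 at the rate of their lengths. These 2 genes were added to the count after the table was seen. Grouped by their known relatedness, the receptors formed 14 groups, and the tailless-related group was in the table with 4 of 4 genes (tll, dsf, Hr51 and Hr83). This group was picked out after the table was seen and has no test. Its genes are 2.09, 13.3, 8.06 and 1.27 kb long, so none lies in the longest decile, and 0.337 of them would be listed at the rate of their lengths. The pairs Eip75B with Eip78C and Hr39 with ftz-f1 had 1 gene each in the table, and the knirps-type group 1 of 3. Of the 10 receptors that stand alone in their group, EcR, Hr4 and svp were in it.

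Most of the 9 ecdysone-induced genes of the set outside the receptor family were not in the table. The one that was, ImpL2 (FBgn0001257), encodes a secreted protein that binds insulin-like peptides and limits their action. Those not in it were the ETS-domain factor gene Eip74EF, the ABC transporter gene E23, ImpE1, ImpE2 and ImpE3, which were found as genes induced in imaginal discs, the methionine sulfoxide reductase gene Eip71CD, the cyclin-dependent kinase gene Eip63E, and Eip55E, which encodes an enzyme of cysteine synthesis. Of the 9, Eip74EF, E23, ImpE1 and Eip63E lay in the longest decile, and 0 of these 4 was in the table at 60.7, 20, 18.8 and 94.8 kb. At the rate of their lengths 1.05 of these 4 would be listed, so the count of 0 is near that rate. Across the 9 genes 1 was in the table, against 1.35 at the rate of their lengths.

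Among the cofactors, the co-repressor gene Smr (FBgn0265523), the relative of vertebrate SMRT and NCoR, was in the table. The co-activator gene tai, taiman, a partner of EcR, was not, and nor was EcI, the importer that carries ecdysone into cells. All 3 lie in the longest decile, at 58.4, 83.4 and 24.6 kb, and 0.787 of them would be listed at its rate.

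The genes of the set are long, with a median of 19955 bp and a range of 1094 to 113744 bp. For the 17 genes in the longest decile the share in the table was 29.4% (5 genes), near the 26.2% of all genes of that decile. These 5 were EcR, Eip75B, Hr4, Hr39 and Smr. For the 14 shorter genes it was 35.7% (5 genes), against 7.09% averaged over their deciles, and these were Hr51, Hr83, dsf, eg and ImpL2. At the rate of their lengths 4.46 of the 17 longer genes and 0.993 of the 14 shorter genes would be listed. By class, 4 of the 10 longer receptors were in the table against 2.62 at that rate, and 0 of the 4 longer early genes against 1.05. Of the 9 shorter receptors 4 were, against 0.695. These differences were not tested. In the 9th decile, from 6481 to 14711 bp, all 4 genes of the set were in the table (Hr51, eg, ImpL2 and dsf), against 12.5% of all genes of that decile. In the 7th decile 0 of 4 was (kni, ERR, Hr78 and usp), which is near the 5.3% of all genes of that decile. The median lengths of the 10 genes in the table and the 21 not in it were close, at 17876 and 19955 bp. Among all protein-coding genes the corresponding medians were 6486 and 2068 bp.

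**Figure D2:**
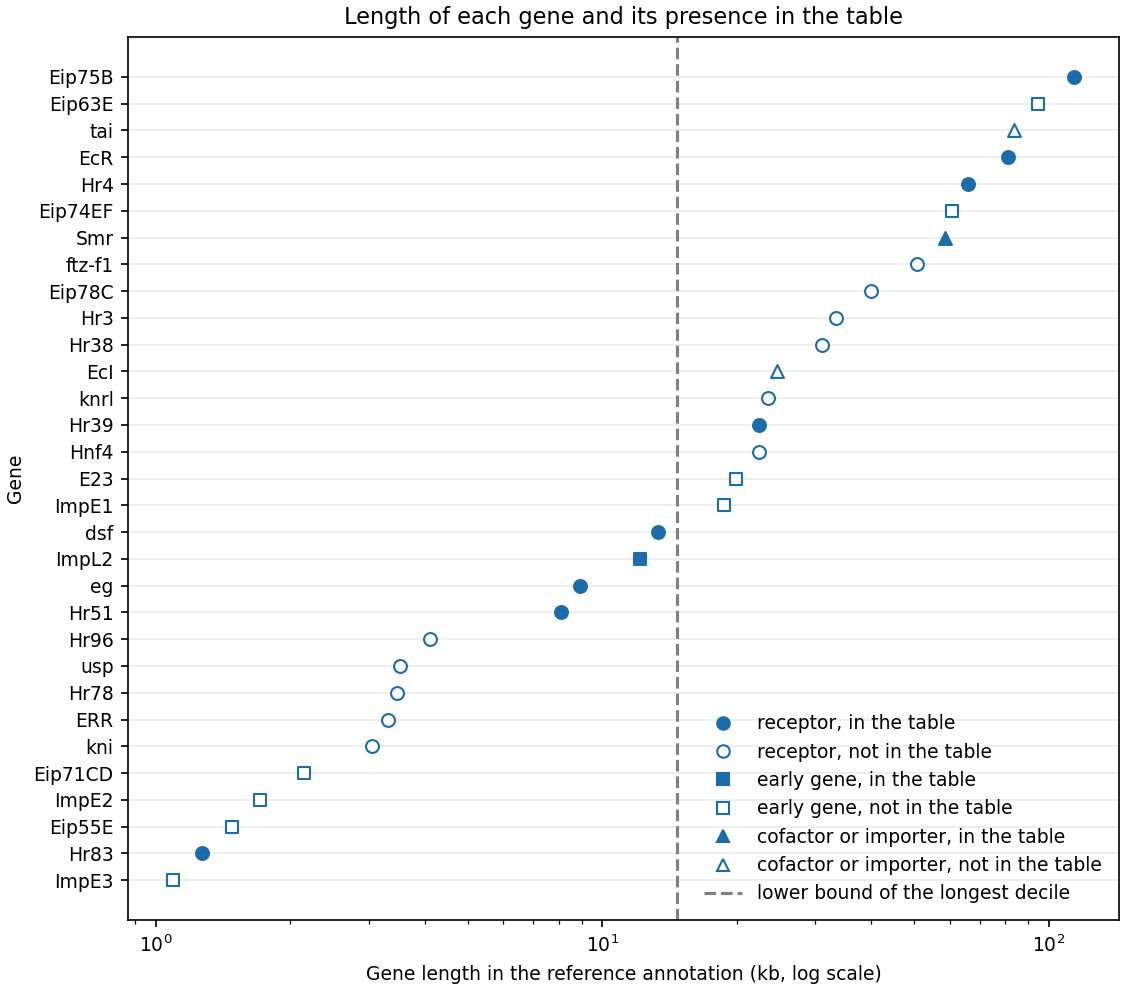
Length of each of the 31 genes in the reference annotation (horizontal axis, kb, log scale), ordered by length. Filled symbols are genes in the table, open symbols genes not in it, circles receptors, squares early genes and triangles cofactors and the importer, and the dashed line is the lower bound of the longest decile. Every gene from 1.48 to 4.12 kb is open, in deciles where 4.23% to 6.81% of all protein-coding genes were in the table. Every gene from 8.06 to 13.3 kb is filled, and filled and open symbols are mixed from 18.8 kb to 94.8 kb.

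**Figure D3:**
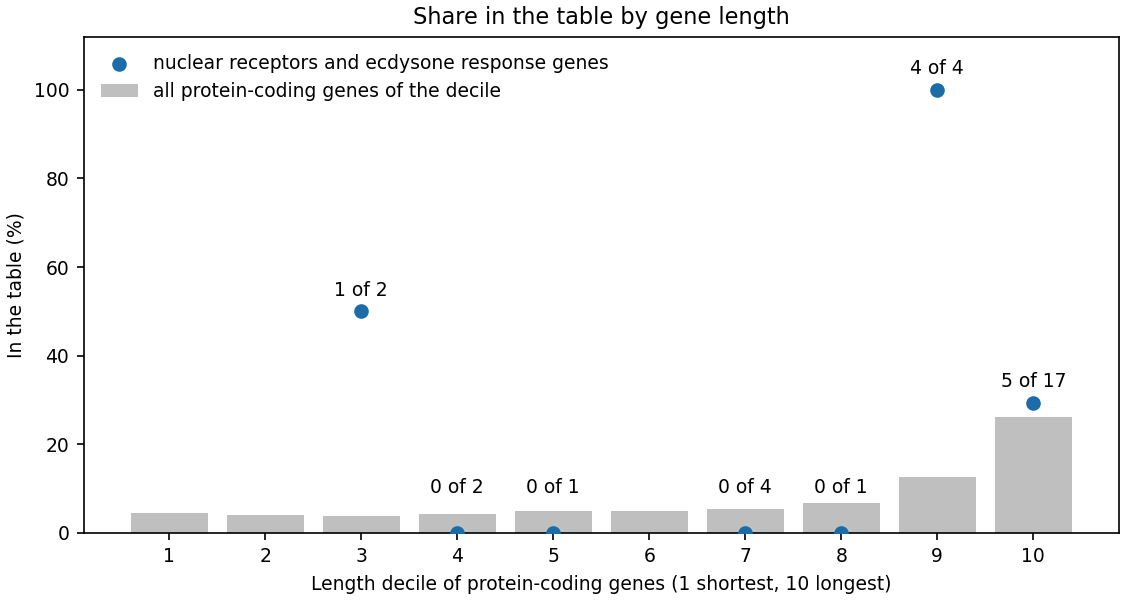
Share in the table (vertical axis, %) for all protein-coding genes of each length decile (grey bars) and for the 31 genes of the set (points, with counts). The 17 genes of the longest decile lie near its bar, with 29.4% against 26.2%, and the 4 genes of the 9th decile were all in the table.

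A peak can put several neighbouring genes on a list when genes are assigned by distance, so the neighbours of each gene were examined in the reference gene order. Of the 10 genes in the table, 4 had an adjacent protein-coding gene that was in it as well. Hr51 stood between CG8160 and the netrin receptor gene unc-5, both in the table, with the long non-coding RNA gene lncRNA:CR44371 only 0.129 kb away and also in it. Hr83 lay 383 bp from the kinase gene Pak, Hr4 lay 403 bp from CG3587, and Smr lay 1642 bp from Tis11, which encodes a factor of mRNA decay. For these 4 genes it cannot be told from names which gene of the run a peak lies in. The same holds for svp, which overlaps its neighbour CG44037 in the table. The gene next to tll, Cpr100A, was in the table too, but 13.1 kb away. Of the 4 tailless-related genes, Hr51 and Hr83 thus lay close beside another gene in the table.

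The other 6 genes in the table, EcR, Eip75B, Hr39, dsf, eg and ImpL2, had no adjacent protein-coding gene in it. This applied to 31.6% of all protein-coding genes in the table (342 of 1082). Long genes in the table had an adjacent gene in it less often, at 47% in the longest decile. Of the 5 longest-decile genes of the set in the table, 2 had one, which is near that share. EcR was the most isolated gene of the set, because the nearest other gene in the table, dpr12, lay 227 kb away, and of the 1082 genes only 12 (EcR among them) had a nearest neighbour in the table at least that far off. Hr39 was 67 kb from lncRNA:CR42696, dsf 32.9 kb from chic, eg 27.2 kb from mub, ImpL2 10.2 kb from ago, and Eip75B 9.81 kb from the pseudogene CR45391. The median distance to the nearest other gene in the table was 10 kb over the 10 genes and 0.404 kb over all protein-coding genes in the table. For genes in the table from the longest decile the median was 1.82 kb.

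**Figure D4:**
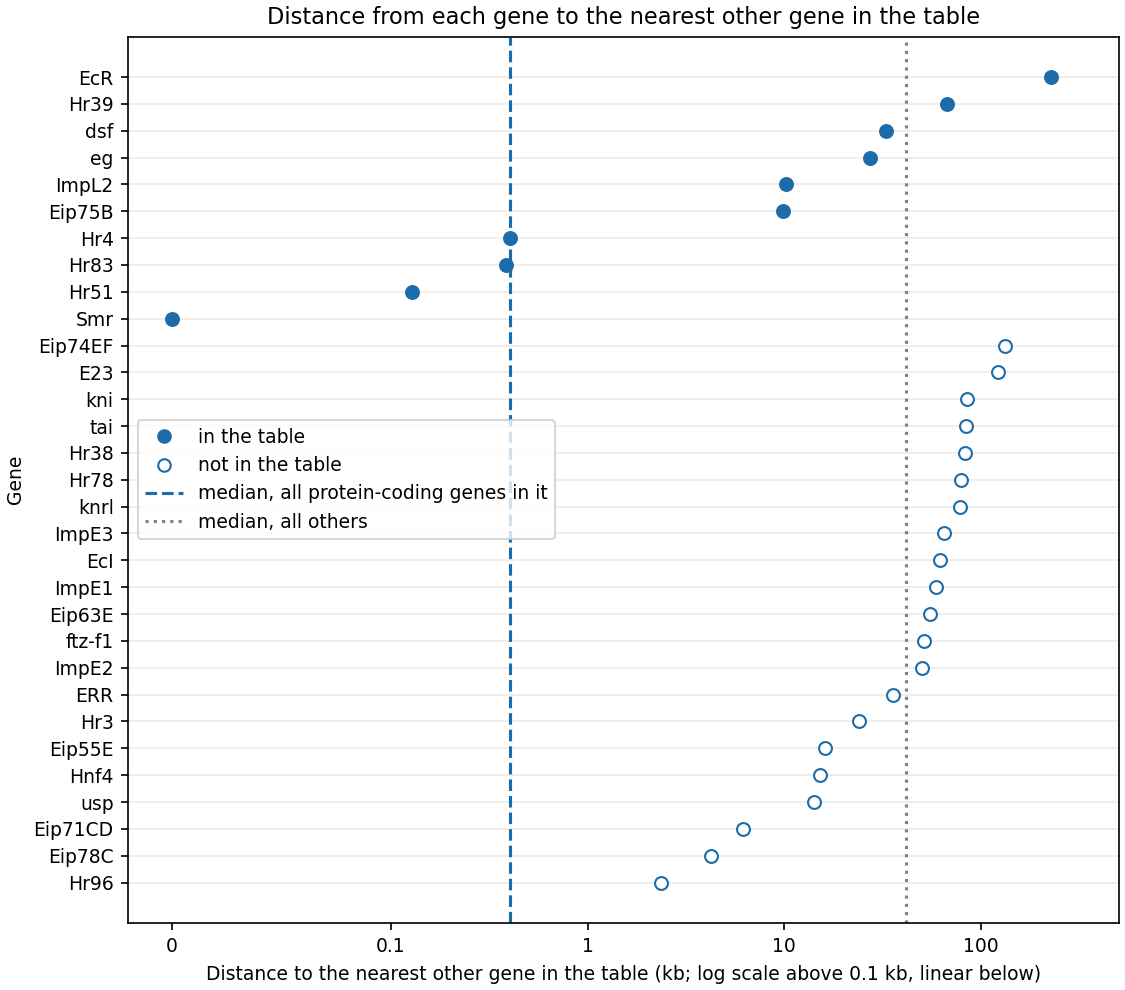
Distance from each of the 31 genes to the nearest other gene of any kind in the table (horizontal axis, kb, log scale above 0.1 kb), with genes in the table filled and the others open. The dashed line is the median of all protein-coding genes in the table, 0.404 kb, and the dotted line that of all others, 41.6 kb. EcR, Hr39, dsf, eg, ImpL2 and Eip75B lie well to the right of the dashed line, and Smr, at 0 kb, overlaps an antisense gene in the table.

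Genes nested in or overlapping those 10 genes were mostly not in the table. The 10 genes overlapped 28 other annotated genes, of which 1 was in it, the antisense RNA gene asRNA:CR45623 at Smr. EcR alone overlapped 15 genes, among them CG14589, lncRNA:CR43904 and a series of tRNA genes, and none of the 15 was in the table. The 4 genes that overlap Eip75B (lncRNA:CR45921, lncRNA:CR45922, CG32192 and CG42393) were not in it. For all protein-coding genes in the table, the share of overlapping genes that were in it as well was 41.8%, and for those of the longest decile it was 28.9%. The overlapping genes at EcR share 1 host and are not independent of one another.

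None of the 21 genes not in the table had an adjacent protein-coding gene in it, against 8.96% of all protein-coding genes not in the table. With only 21 genes, a count of 0 is near that share, and the difference was not tested. ImpE2 and Eip63E adjoin each other, so the 21 are not all independent. The closest to a gene in the table were Hr96 with tnc at 2.37 kb, Eip78C with AcCoAS at 4.22 kb and Eip71CD with CG7857 at 6.16 kb. Over the 21 genes the median distance was 54.8 kb, with 132.4 kb at Eip74EF as the largest, and over all protein-coding genes not in the table it was 41.6 kb.

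By chromosome arm, 2 of 3 genes were in the table on X (Hr4 and Smr), 2 of 6 on 2L (Hr39 and dsf), 2 of 4 on 2R (EcR and Hr51), 3 of 15 on 3L (Eip75B, eg and ImpL2) and 1 of 3 on 3R (Hr83). Arm 3L held the most genes of the set and the lowest share, 20%, near the 17.3% at the rate of their lengths (2.6 of 15). At that rate 0.578 would be listed on X, 1.44 on 2L, 0.692 on 2R and 0.146 on 3R. These 4 arms held only 3 to 6 genes of the set each, and no difference between arms was tested. Of all protein-coding genes of 3L, 9.09% were in the table, against 6.29% to 8.28% on the other 4 of these arms.

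A wider list of 54 genes of hormone synthesis, response and co-regulation was looked up in the same table, with older symbols and synonyms accepted as well. It was written with earlier results of these data known. Of these, 43 had a gene in the reference annotation used, and 7 of the 43 were in the table (16.3%), against 4.74 at the rate of their lengths. The 11 without one were the Eip71E genes, late genes of the salivary gland puffs, and none of their names was in the table.

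Beside svp and tll, 4 of 5 other primary response factors were in the table. These are br (FBgn0283451), the Broad zinc finger factors that mark the pupal transition, Kr-h1 (FBgn0266450), a zinc finger factor induced by juvenile hormone and ecdysone, vri (FBgn0016076), a bZIP factor that also serves the circadian clock, and crol (FBgn0020309), a zinc finger factor of the prepupal response. The fifth, Eip93F, was not in the table. At the rate of their lengths 1.17 of the 5 would be listed. Kr-h1 and br lie at 0 kb from an adjacent gene in the table (CG45075 and Mur2B), crol lies 0.653 kb from CycY, and vri adjoins none. For Kr-h1, br and crol it thus cannot be told from names which gene a peak lies in. The last of the 7 was Fbp1 (FBgn0000639), a fat body protein gene, 5.43 kb from the Sox factor gene Sox21a, which was in the table as well.

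Genes that make or clear the hormone were not in the table. Of 9 synthesis genes (nvd, spo, spok and sro among them) 0 was in it. Nor was Cyp18a1, which inactivates ecdysteroids, or Ptth and its receptor gene tor, which drive the prothoracic gland. Their lengths give an expected 0.0681 for Cyp18a1 and 0.0917 for Ptth and tor, so 0 is near that rate. At the rate of their lengths 1.01 of the 9 synthesis genes would be listed, so a count of 0 is near that rate. Of 9 further cofactor genes (trr, Utx, E(bx) and rig among them) 0 was in the table against 1.18 at the rate of length, and of 4 juvenile hormone genes (Met, gce, jhamt and Jhe) 0 was against 0.422. Of the late and tissue response genes, 1 of the 11 with a reference gene was in the table, Fbp1, near the 0.488 at the rate of their lengths, and the glue genes (Sgs1, Sgs3, Sgs4 and Sgs5 among them) were not.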

How the data were processed

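The authors deposited 1 table of gene names, FlyBase identifiers and symbols, whose values are of no numeric unit; per the file header these are genes with Prospero peaks. Per the labels, each fusion's profile was taken against Dam alone and averaged. The sources used here name no aligner, peak caller, threshold, assignment rule or build. The 31 members, the role groups and the wider list were chosen with earlier results of these data known, and no set test was made.

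The 31 names were looked up by exact symbol. For the background, 1507 of the 1512 gene entries were matched to RefSeq (Release 6 plus ISO1 MT), 1457 by current symbol and 50 by another name, giving 1504 genes. Eip71CD, Eip55E and EcI stand there as MsrA, Cth and Oatp74D. Length, order, overlap and distances come from that annotation, and distances leave out arm Y. Every gene of the set is named. Of the wider list, all in the table are named and up to 4 others per role. An expected count sums the shares of each gene's length decile. The 95% intervals in the closing section (exact, Clopper-Pearson) reflect counting error alone. Distance and overlap routines were tested on simulated data. Python 3.11.15, numpy 2.4.6, pandas 2.3.3, scipy 1.17.1 and matplotlib 3.10.9 were used.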

Additional observations from a re-analysis of the deposited data

How the results depend on the processing

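The shares of the 3 groups and of the whole set were recomputed under 38 alternatives, and 4 moved outside the exact 95% interval of the main share. Without arm 3L, which carries ImpL2, and without ImpL2 itself, the early ecdysone genes were at 0%. The cofactors were at 0% without arm X, which carries Smr, and also without genes beside another gene in the table. Both groups had 1 gene in the table, and an exact interval around 1 gene cannot reach 0%, so leaving that gene out had to move the share. The intervals are wide, so a share that stays inside its interval is not thereby shown to be stable. With each arm left out in turn the whole set ran from 28.6% to 43.8%, receptors from 37.5% to 54.5%, early genes from 0% to 12.5% and cofactors from 0% to 50%. The main intervals were 16.7% to 51.4%, 20.3% to 66.5%, 0.281% to 48.2% and 0.84% to 90.6%. Older symbols or gene identifiers alone changed no count. Without EcR and Eip75B the receptors were at 35.3%. With the receptors that ecdysone induces, the early genes were at 26.7%.

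Leaving out genes beside another gene in the table, chosen after seeing the data, gave 22.2% for the set and 31.2% for receptors. The background of 7.76% was 8.42% over all annotated genes, 9.54% over named protein-coding genes, and 17.6%, 17.5% and 15% at the length deciles of the set, the receptors and the early genes. No paired analysis was possible because the table has no columns of samples.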
